A study of Mus musculus with 12 samples.

Results

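Stromal Wnt, R-spondin and gremlin signals were followed in the mid-colon of mice over 6 days of colitis. They were 8 genes, chosen by symbol from the 25904 genes of the deposited table: the R-spondins Rspo1, Rspo2 and Rspo3, the bone morphogenetic protein (BMP) antagonist Grem1, and the Wnt ligands Wnt2, Wnt2b, Wnt4 and Wnt5a. All 8 were in the table. Of these, 6 had at least 1 CPM (the reads of a gene after all libraries are put on the same total) in at least 3 libraries and were tested among 15246 genes, whereas Rspo2 and Wnt2 did not reach that level. Colitis was induced with dextran sulfate sodium (DSS), a chemical that damages the lining of the colon, given at 3% in the drinking water of specific-pathogen-free mice aged 7 weeks. Whole mid-colon tissue was taken at day 0, the reference, and at days 2, 4 and 6 of DSS, with 3 libraries per day. The labels name no genetic alteration, and the sources used here do not give the strain or sex of the animals. The labels name no group on water alone at days 2, 4 and 6, so DSS and the passing of days cannot be told apart as sources of a change. Whether the replicates came from separate animals is not stated either, so the p-values speak only of the spread between these libraries, part of which may be technical.

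Wnt ligands bind frizzled receptors with their co-receptors on epithelial cells of the crypt base and keep stem cells dividing, in part through beta-catenin. R-spondins bind Lgr receptors and withdraw the ubiquitin ligases Rnf43 and Znrf3, which otherwise remove frizzled receptors from the cell surface, so that R-spondins amplify a Wnt signal without starting it. BMP ligands promote differentiation toward the lumen, and Grem1, secreted by fibroblasts and muscle cells beneath the crypt base, binds these ligands and keeps them from their receptors. In the mouse intestine, fibroblasts are known as a main source of all these signals, so whole tissue holds both the senders and the epithelial cells that receive them.

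Promoter windows are shown for Grem1 and Rspo1, which rose, and for Wnt2b, whose change did not pass the test, a choice made after the values were seen. RefSeq windows (assembly GRCm38.p6), each of 300 bases ending 50 bases past the RefSeq gene start, were matched by symbol for 5 of the 8 genes. Windows were not matched for Rspo2, Rspo3 and Wnt5a. Capitals mark the letters of a CCAAT box (CCAAT) or a GC box (GGGCGG), on either strand and with overlapping matches allowed. The windows lie at chr2:113758599-113758898 on the minus strand for Grem1, chr4:124986180-124986479 on the plus strand for Rspo1 and chr3:104961660-104961959 on the minus strand for Wnt2b. For Wnt2b the gene coordinates given below place the start at 104961921, near the upstream end of this window. By those coordinates most of the Wnt2b window lies inside the gene.
Grem1: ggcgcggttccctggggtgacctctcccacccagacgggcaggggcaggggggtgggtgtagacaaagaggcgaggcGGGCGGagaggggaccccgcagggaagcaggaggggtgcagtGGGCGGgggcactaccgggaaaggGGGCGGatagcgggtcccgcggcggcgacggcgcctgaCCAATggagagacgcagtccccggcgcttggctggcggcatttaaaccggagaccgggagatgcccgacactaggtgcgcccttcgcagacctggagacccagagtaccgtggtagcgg
Rspo1: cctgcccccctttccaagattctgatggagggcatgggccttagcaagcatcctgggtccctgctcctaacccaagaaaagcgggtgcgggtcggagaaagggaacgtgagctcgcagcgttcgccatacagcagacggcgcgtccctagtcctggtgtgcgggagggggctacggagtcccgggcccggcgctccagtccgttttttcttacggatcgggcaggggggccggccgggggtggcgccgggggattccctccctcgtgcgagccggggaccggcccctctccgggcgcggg
Wnt2b: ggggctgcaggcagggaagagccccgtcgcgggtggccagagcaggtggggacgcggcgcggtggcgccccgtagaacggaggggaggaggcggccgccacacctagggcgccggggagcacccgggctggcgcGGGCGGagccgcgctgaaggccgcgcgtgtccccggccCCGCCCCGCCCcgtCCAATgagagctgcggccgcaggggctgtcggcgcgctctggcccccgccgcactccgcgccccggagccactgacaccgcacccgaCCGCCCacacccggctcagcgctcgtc
The Grem1 window held 1 CCAAT box and 3 GC boxes, the Wnt2b window 1 and 4, and the Rspo1 window neither. Of 32851 windows of this length, 37.41% held a CCAAT box and 35.66% a GC box. The guanine and cytosine content was 70.67% for Grem1, 69% for Rspo1 and 79.67% for Wnt2b, against a median of 52.67% over all windows. None of the 5 windows held the letters searched for TCF/LEF (ATCAAAG, in 3.729% of windows), AP-1 (TGANTCA, 7.808%), STAT (TTCNNNGAA, 8.298%), TEAD (ACATTCC, 3.848%), GLI (GACCACCCA, 0.2527%) or a TATA box (TATAAA, 13.62%). These matches describe letters in a window, not sites of binding.

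The reads recovered for the genes of the deposited table numbered 30979977 to 40930613 per library, and 1 read was worth 0.0244 to 0.0322 CPM. The summed level of 10 fibroblast markers ranged from 1936 to 2771 CPM at day 0 and from 5356 to 12446 CPM at day 6, and that of 8 epithelial markers from 10495 to 14334 CPM at day 0 and from 4567 to 13527 CPM at day 6, so the labelled tissue showed both cell types. Day 6 replicate 2 stood apart from the other 11 libraries in these sums, with the most fibroblast and the least epithelial marker RNA of all. In that library the summed markers of pericytes, blood endothelium, lymphatic endothelium and enteric glia and neurons were also the highest of the series. The day 6 calls are therefore also given without it.

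The gremlin gene Grem1 and the R-spondin gene Rspo3 had risen many times over by day 4 and stayed high at day 6. The Wnt ligand gene Wnt5a was higher than day 0 at both days, and the Wnt2b change did not pass the test. Wnt4 rose between day 2 and day 4 only to near its day 0 level (means of 7.04, 3.23 and 6.85 CPM at days 0, 2 and 4). That Wnt4 call was lost without day 2 replicate 2 or without day 4 replicate 2. The R-spondin gene Rspo1, which passed the filter on low values only through the days when it was high, is left out of the counts below and described apart. Of the other 5 tested genes, 3 were higher at day 4 than at day 0 (Grem1, Rspo3 and Wnt5a) and 0 were lower, by limma with a Benjamini-Hochberg adjusted p under 0.05, where 21.2% of all tested genes were higher and 12% lower. The same 3 genes were higher at day 6 and 0 were lower, where 23.5% of all tested genes were higher and 12.4% lower. Wnt4 was called lower at day 6 with median-of-ratios scaling, quantile normalization, edgeR and DESeq2. At day 2, 0 of 5 passed the limma test in either direction, where 0.118% of all genes were higher and 0.203% lower. With p left unadjusted and a threshold of 0.05, Wnt5a would count as higher and Wnt4 as lower at day 2 (1 gene each). Of these, edgeR called neither and DESeq2 called both. An F test over the 4 days in the same limma fit passed for 4 of these 5 genes, all but Wnt2b (adjusted p = 0.321), where 43% of all tested genes passed. Fold changes below are differences of log2(CPM + 1) ± SE from the limma fit, a scale that understates the change of low genes, and each adjusted p is from limma. On this scale the median of all tested genes was 0.13 at day 4 and 0.14 at day 6, and scaling by median of ratios moved it to 0.01 and -0.01. In bulk tissue, fewer cells of a type and less RNA per cell cannot be told apart.

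**Figure D1:**
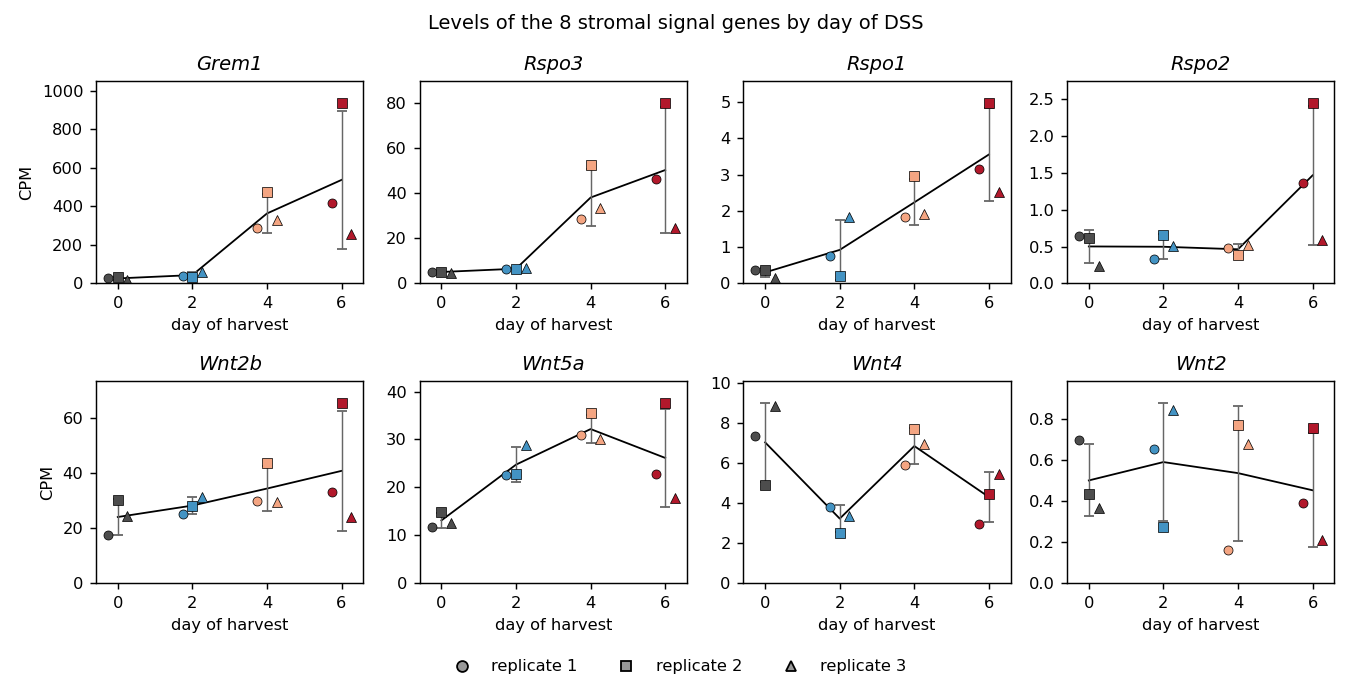
Level in CPM (y axis, linear, a separate scale for each gene) against day of harvest (x axis) for the 8 genes. Markers are libraries shaped by replicate, lines join the means of 3 libraries and bars are ± 1 SD. Grem1 ran from 18.4 to 33.0 CPM at day 0 and from 256 to 938 CPM at day 6, and replicate 2 was the highest library at day 6 for all genes but Wnt4.

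Grem1 lies at chr2:113746164-113758646 on the minus strand of GRCm38, with 2 exons and 4148 bases of exon. Its level was 25.6, 33.0 and 18.4 CPM in day 0 replicates 1, 2 and 3, 37.6, 32.9 and 58.5 CPM at day 2, 286, 475 and 327 CPM at day 4, and 417, 938 and 256 CPM at day 6. Every library of days 4 and 6 lay above every library of days 0 and 2, while days 0 and 2 overlapped. The mean rose from 25.7 ± 7.34 CPM (SD, n = 3) at day 0 to 363 ± 99.3 CPM at day 4 and 537 ± 356 CPM at day 6, ratios of 14.1 and 20.9. The log2 difference from day 0 was 0.72 ± 0.41 at day 2 (adjusted p = 0.416), 3.77 ± 0.41 at day 4 (5.6e-05) and 4.16 ± 0.41 at day 6 (2.0e-05). The step from day 2 to day 4 was 3.06 ± 0.41 (adjusted p = 0.000221). Days 4 and 6 overlapped, with a difference of 0.39 ± 0.41 (adjusted p = 0.663) that turned to -0.12 without day 6 replicate 2. Without that library the difference between day 6 and day 0 was 3.66 (adjusted p = 9.58e-06).

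Among the R-spondins, Rspo3, the family member that mouse gut stroma is best known to supply, had the highest level. It lies at chr10:29452416-29535867 on the minus strand, and 13.07% of its exon bases (404) also belong to the antisense gene Gm48159. That gene was not among the genes of the deposited table, and since the sources used here do not give the strand setting of the counting, reads of the pair cannot be told apart. Rspo3 stood at 5.27, 5.20 and 4.70 CPM at day 0, 6.31, 6.40 and 6.82 CPM at day 2, 28.6, 52.5 and 33.4 CPM at day 4, and 46.2, 80.3 and 24.6 CPM at day 6. The 3 libraries of day 2 lay just above those of day 0, and those of days 4 and 6 lay several times higher, with days 4 and 6 overlapping. The small step at day 2 did not pass the test (0.31 ± 0.34, adjusted p = 0.661). The differences from day 0 were 2.65 ± 0.34 at day 4 (adjusted p = 0.000182) and 2.93 ± 0.34 at day 6 (6.8e-05), or ratios of mean CPM of 7.55 and 9.96. Day 6 did not differ from day 4 beyond the spread (0.28 ± 0.34, adjusted p = 0.705, and -0.12 without day 6 replicate 2).

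Rspo1, at chr4:124986430-125009099 on the plus strand, was a rare transcript that passed the filter only through the days when it was high. It stood at 0.377, 0.374 and 0.157 CPM at day 0 and at 0.754, 0.192 and 1.83 CPM at day 2. Its level was 1.82, 2.96 and 1.92 CPM at day 4 and 3.17, 4.99 and 2.51 CPM at day 6. Every library of days 4 and 6 lay above day 0, whereas day 2 ran from within the range of day 0 to within that of day 4. Between 6 and 14 reads stood behind each day 0 value and between 95 and 191 behind each day 6 value. The ratio of mean CPM to day 0 was 7.39 at day 4 and 11.8 at day 6. Because the filter let Rspo1 through by its high days, its p is taken from the limma fit of all genes without that filter, where the difference from day 0 was 1.30 ± 0.30 at day 4 (adjusted p = 0.0112) and 1.77 ± 0.30 at day 6 (0.00176). The size of this difference depended on the scale, from 0.45 to 2.74 at day 4 and from 0.68 to 3.38 at day 6 over 22 alternatives.

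Rspo2, at chr15:43020794-43170826 on the minus strand, did not pass the filter. It stood between 0.236 and 0.660 CPM in the 9 libraries of days 0, 2 and 4, and at 1.37, 2.45 and 0.582 CPM at day 6. Day 6 replicates 1 and 2 lay above every earlier library and replicate 3 lay within their range. Fitted without the filter, the day 6 difference was 0.66 ± 0.24 (limma adjusted p = 0.0682). The remaining R-spondin, Rspo4, added after values were seen, was at most 0.249 CPM and had no reads in 5 of the 12 libraries.

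Wnt2b, a ligand that acts through beta-catenin and is made by fibroblasts around the crypt, lies at chr3:104945272-104961921 on the minus strand. Its level was 17.4, 30.2 and 24.6 CPM at day 0, 25.1, 28.2 and 31.4 CPM at day 2, 29.8, 43.7 and 29.6 CPM at day 4, and 33.0, 65.5 and 23.9 CPM at day 6. Each later day overlapped with day 0. The differences from day 0 were 0.25 ± 0.32, 0.51 ± 0.32 and 0.65 ± 0.32 at days 2, 4 and 6 (adjusted p = 0.709, 0.244 and 0.137), and the 95% interval at day 6 ran from -0.06 to 1.35. The day 6 value rested on single libraries: it was 0.25 without replicate 2 of that day and passed the test without replicate 3 (0.96, adjusted p = 0.022).

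Wnt5a, which signals mainly without beta-catenin through Ror and frizzled receptors, lies at chr14:28504750-28527448 on the plus strand. It shares 358 exon bases (4.576%) with the antisense gene Gm2670, which was not among the genes of the deposited table. Its level was 11.8, 14.9 and 12.7 CPM at day 0, 22.5, 22.9 and 28.9 CPM at day 2, 30.9, 35.5 and 30.1 CPM at day 4, and 22.9, 37.7 and 17.9 CPM at day 6. Each library of days 2, 4 and 6 lay above each library of day 0, and day 6 overlapped with days 2 and 4. The difference from day 0 was 0.86 ± 0.23 at day 2 (adjusted p = 0.151), 1.23 ± 0.23 at day 4 (0.00184) and 0.88 ± 0.23 at day 6 (0.0111). The day 2 value passed with DESeq2 (0.87, adjusted p = 0.0176), with only the 2 days in the limma fit (0.0342) and without day 6 replicate 2 (0.0126). The day 6 call was lost with only the 2 days in the fit (adjusted p = 0.0705).

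Wnt4, a ligand that acts with or without beta-catenin depending on the cell, lies at chr4:137277489-137299726 on the plus strand. It stood at 7.34, 4.92 and 8.84 CPM at day 0, 3.82, 2.5 and 3.37 CPM at day 2, 5.89, 7.70 and 6.97 CPM at day 4, and 2.97, 4.46 and 5.48 CPM at day 6. Every library of day 2 lay below every library of days 0 and 4. Day 6 overlapped with day 0 and lay wholly below day 4. The difference from day 0 was -0.91 ± 0.24 at day 2 (adjusted p = 0.153 with limma, 0.00904 with DESeq2), -0.01 ± 0.24 at day 4 (0.981) and -0.60 ± 0.24 at day 6 (0.0742). Between day 2 and day 4 it rose by 0.90 ± 0.24 (adjusted p = 0.0136), a call that was lost without day 2 replicate 2 (0.0614) or without day 4 replicate 2 (0.0525). At day 6 Wnt4 was called lower than day 0 with median-of-ratios scaling (-0.74, adjusted p = 0.0348), quantile normalization (-0.87, 0.019), edgeR (-0.86, 0.0428) and DESeq2 (-0.87, 0.0137), and without day 0 replicate 2 (-0.80, 0.0295) or day 6 replicate 3 (-0.75, 0.0295).

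Wnt2, a beta-catenin-dependent ligand at chr6:17988940-18030585 on the minus strand, did not pass the filter. It stood between 0.161 and 0.842 CPM in all 12 libraries, on 6 to 30 reads, with overlapping days. Fitted without the filter, its differences from day 0 lay between -0.06 and 0.07, with an adjusted p of at least 0.889 by limma.

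**Figure D2:**
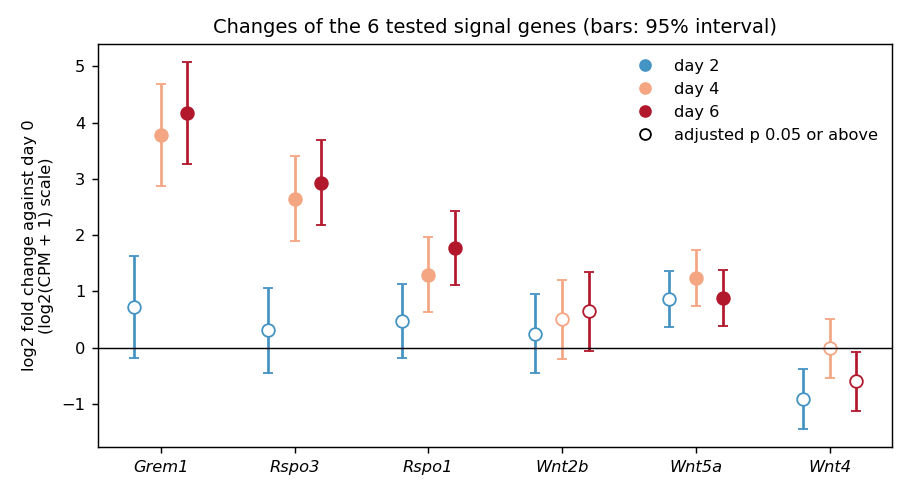
Difference of log2(CPM + 1) from day 0 (y axis) for the 6 tested genes (x axis) at days 2, 4 and 6, with 95% intervals from the limma fit as bars. Filled circles passed an adjusted p of 0.05. Grem1, Rspo3, Wnt5a and Rspo1, the last of which passed the filter only through its high days, were filled at days 4 and 6, and no gene was filled at day 2.

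Between consecutive days and again without Rspo1, 3 of 5 genes rose from day 2 to day 4 (Grem1, Rspo3 and Wnt4) and 0 fell by the limma test, where 21% of all tested genes were higher and 12.9% lower. Rspo1 had a difference of 0.82 ± 0.30 in that step, with an adjusted p of 0.0774 in the fit without the filter. From day 4 to day 6, 0 of 5 passed in either direction, where 1.9% were higher and 0.951% lower. Wnt4 was the only one of the 5 with an unadjusted p under 0.05 in that last step (0.0322, lower, adjusted p = 0.216), and neither edgeR nor DESeq2 called any of them there.

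Compared per length, as CPM per kilobase of exon, Grem1 and Wnt2b led at day 0 and did not differ beyond their spread (6.19 ± 1.77 and 5.73 ± 1.52, SD, n = 3). Wnt4 (1.68 ± 0.472), Wnt5a (1.68 ± 0.202) and Rspo3 (1.64 ± 0.101) formed a middle group with overlapping ranges. Wnt2 (0.222), Rspo1 (0.156) and Rspo2 (0.0981) lay wholly below that middle group, each overlapping with the next. By day 4 the order had become Grem1 (87.4 ± 24.0), Rspo3 (12.3 ± 4.09), Wnt2b (8.18 ± 1.91), Wnt5a (4.11 ± 0.370), Wnt4 (1.63 ± 0.217) and Rspo1 (1.15 ± 0.326). In that order Rspo3 and Wnt2b overlapped, as did Wnt4 and Rspo1. At day 6 Grem1 stood at 129 ± 85.9, Rspo3 at 16.3 ± 9.08 and Wnt2b at 9.71 ± 5.21 CPM per kilobase. Wnt5a (3.34 ± 1.31), Rspo1 (1.84 ± 0.661) and Wnt4 (1.03 ± 0.300) followed, each overlapping with the next. Rspo2 (0.287) then stood above Wnt2 (0.201) with overlapping ranges.

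Within families, Rspo3 made up 84.2% ± 5.99 of the summed R-spondin level per kilobase at day 0 and 90.7% ± 0.648 at day 4 (SD, n = 3). The summed R-spondin level itself went from 1.96 ± 0.248 CPM per kilobase at day 0 to 13.6 ± 4.42 at day 4 and 18.4 ± 9.91 at day 6. Wnt2b held 49.0% ± 7.58 of the summed level of all Wnt genes at day 0 and 52.7% ± 5.56 at day 6, within the spread. The Wnt5a share was 14.6% ± 0.942 at day 0, 23.1% ± 1.2 at day 2, 25.1% ± 2.30 at day 4 and 18.9% ± 0.990 at day 6, with every later library above day 0. The summed Wnt level was 11.6 ± 1.41 CPM per kilobase at day 0 and 17.9 ± 7.89 at day 6, with overlapping libraries. Grem1 made up 20.8% ± 3.90 of its own level plus that of the BMP ligand genes Bmp2, Bmp4, Bmp5 and Bmp7 at day 0, and 73.0% ± 0.491 at day 4. These sums are of transcripts and say nothing of the proteins.

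Fibroblast markers rose in the same libraries, and the level of each gene was therefore also set beside them. Of the 10 general fibroblast markers, 6 were higher and 1 lower at day 4, and 7 were higher and 0 lower at day 6, where 21.2% of all tested genes were higher and 12% lower at day 4 and 23.5% and 12.4% at day 6, with no marker at 0 in any library. Narrower fibroblast lists differed: of 9 markers of PDGFRA-high subepithelial fibroblasts, 2 were higher and 3 lower at day 4. Of 6 markers of CD81+ or CD34+ deep fibroblasts, 2 were higher and 1 lower at that day. Among 10 markers of activated fibroblasts, 7 were higher and 0 lower at both days. However, 2 of these 10 were under 1 CPM in every day 0 library and so passed the filter only through later days. The summed level was 2300 ± 428 CPM at day 0, 2748 ± 341 CPM at day 2, 4638 ± 1246 CPM at day 4 and 8651 ± 3571 CPM at day 6 (SD, n = 3). All libraries of days 4 and 6 lay above those of day 0. The summed level of 9 smooth muscle markers, from the other stromal cell known to make Grem1, was 8605 to 11371 CPM at day 0, 12081 to 14960 CPM at day 2, 4205 to 6779 CPM at day 4 and 3140 to 8002 CPM at day 6. Every library of day 2 lay above day 0, and every library of days 4 and 6 below it. The part of either cell type in the changes was not tested.

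Per 1000 CPM of summed fibroblast markers, Grem1 went from 11.2 ± 2.5 CPM at day 0 to 78.2 ± 3.16 at day 4 and 58.1 ± 15.0 at day 6, a ratio of 7 at day 4 and 5.2 at day 6. The 3 libraries of day 4 lay close together at 80.8, 79.3 and 74.7, above every library of days 0 and 2. Rspo3 went from 2.25 ± 0.433 to 8.15 ± 0.575 at day 4 and 5.57 ± 0.929 at day 6, and Rspo1 from 0.134 ± 0.0613 to 0.483 ± 0.0389 and 0.420 ± 0.0435. For these 3 genes the libraries of days 4 and 6 lay above those of day 0 without overlap. Wnt2b, Wnt4 and the rare Wnt2 went the other way relative to these markers. Wnt2b stood at 10.4 ± 1.2 at day 0, 7.49 ± 0.854 at day 4 and 4.59 ± 0.620 at day 6, and Wnt4 at 3.20 ± 1.24, 1.51 ± 0.201 and 0.582 ± 0.382. Wnt2, on few reads, stood at 0.229 ± 0.115, 0.110 ± 0.0570 and 0.0494 ± 0.0107. Wnt5a was higher than day 0 at day 2 (9.06 ± 1.31 against 5.75 ± 0.371), overlapped with it at day 4 (7.18 ± 1.43) and was lower at day 6 (3.06 ± 0.267). Each comparison without overlap had an exact two-sided permutation p of 0.1, the smallest that 3 against 3 can give, so none of the 40 such comparisons could pass 0.05, and the adjusted value was 0.182. With the collagens left out of the marker sum, Wnt2b overlapped with day 0 at day 4 (35.4 against 47.1 per 1000 CPM, exact permutation p = 0.3), as did Wnt2 (0.517 against 0.966, exact permutation p = 0.2). Relative to Pdgfra alone, Wnt5a at day 2 overlapped with day 0 (170 against 151 per 1000 CPM of Pdgfra, exact permutation p = 0.4), and so did Wnt2 at day 4 (2.52 against 6.19, exact permutation p = 0.2). Without day 6 replicate 2, the log2 differences between day 6 and day 0 relative to the 10 markers were 2.17 for Grem1, 1.2 for Rspo3, 1.79 for Rspo1, -1.28 for Wnt2b, -2.30 for Wnt4, -2.28 for Wnt2 and -0.91 for Wnt5a.

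**Figure D3:**
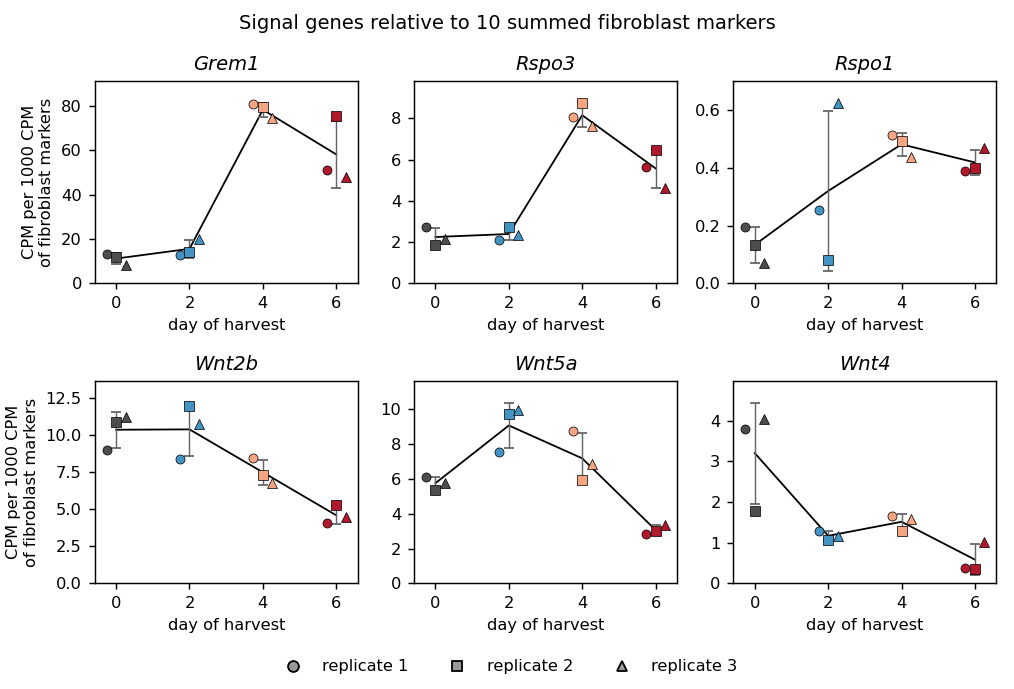
CPM of each tested gene per 1000 CPM of 10 summed fibroblast markers in the same library (y axis, linear) against day of harvest (x axis). Markers are libraries shaped by replicate, lines join the means of 3 libraries and bars are ± 1 SD. Grem1 reached 74.7 to 80.8 at day 4 against 8.38 to 13.2 at day 0, and Wnt2b fell to 4.05 to 5.27 at day 6 against 8.99 to 11.2 at day 0.

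Within day 6 the order of the libraries was replicate 2, 1, 3 from high to low for 7 of the 8 genes, with the highest library 1.98 to 4.21 times the lowest, and replicate 3, 2, 1 for Wnt4. The fibroblast marker sum had the same order as the 7 genes, at 12446, 8151 and 5356 CPM, and the epithelial marker sum the opposite order, at 4567, 8020 and 13527 CPM. Without day 6 replicate 2, the differences between day 6 and day 0 were 3.66 for Grem1, 2.52 for Rspo3 and 0.60 for Wnt5a (adjusted p = 9.58e-06, 4.21e-05 and 0.0161 by limma), so these 3 were again higher. Those of Wnt2b (0.25, adjusted p = 0.464) and Wnt4 (-0.63, 0.0897) again missed the threshold, and that of Rspo1 was 1.56. Leukocyte and neutrophil markers also rose with these genes. The 6 neutrophil markers summed to 6.25 to 10.8 CPM at day 0 and 258 to 336 CPM at day 4. All 6 were called higher at days 4 and 6, where 21.2% and 23.5% of all tested genes were. Of these 6, however, 3 were under 1 CPM in every day 0 library and so passed the filter only through later days. The part of leukocytes and neutrophils in the result was not tested.

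**Figure D4:**
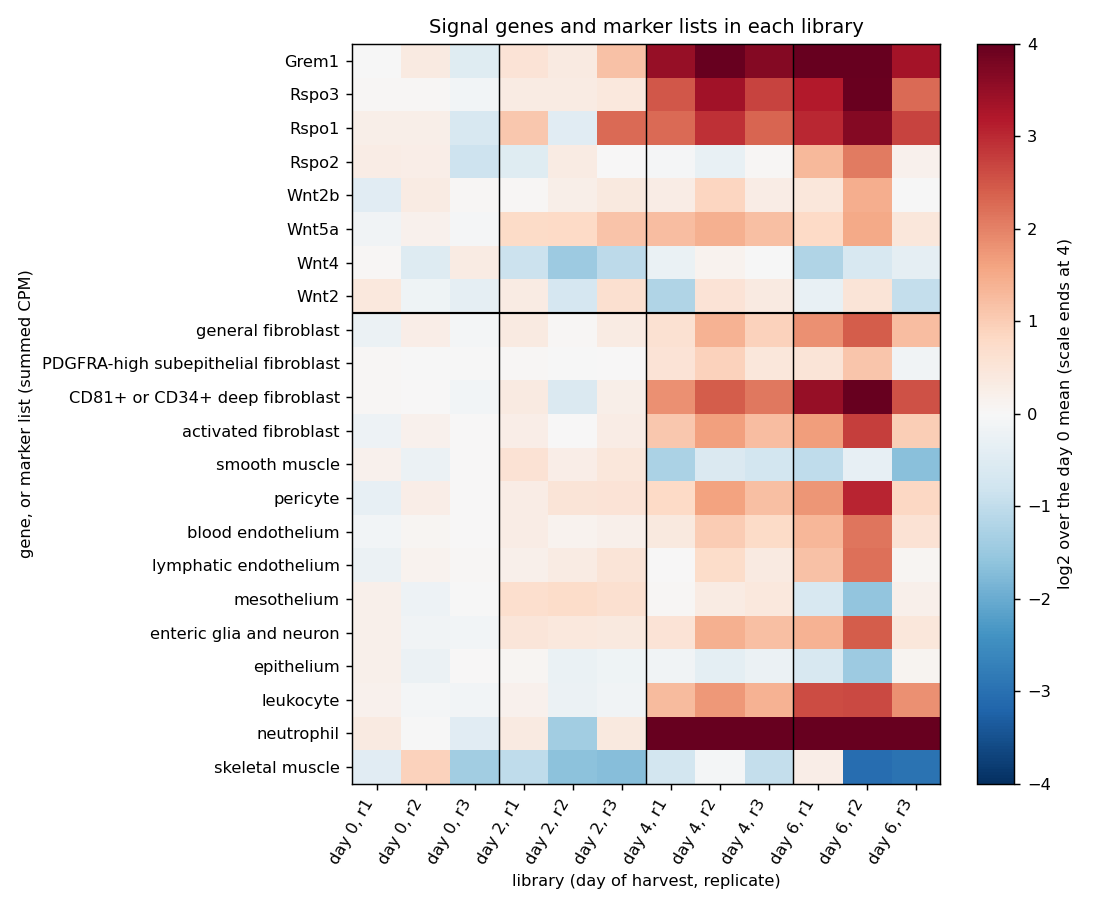
Colour gives the log2 level over the day 0 mean (scale ends at 4 in either direction) in each library (columns) for the 8 genes (top rows, 0.1 CPM added) and for summed marker lists (bottom rows). Grem1 and Rspo3 turn dark from day 4 on, and among the day 6 columns replicate 2 is the highest for 7 of the 8 genes and for the fibroblast, pericyte and endothelial sums.

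The receiving side was described with the remaining genes of the pathways. The counts of each list stand beside 21.2% of all tested genes higher and 12% lower at day 4, and 23.5% higher and 12.4% lower at day 6, and its median beside 0.13 and 0.14. Of the 5 genes of R-spondin receptors and their ligases, 4 were tested, and Lgr5, the receptor that marks crypt stem cells and is itself a Wnt target, was the only one called, lower at days 4 and 6. Lgr5 stood at 7.17 ± 1.39 CPM at day 0, 2.35 ± 0.985 at day 2, 1.53 ± 0.725 at day 4 and 0.884 ± 0.760 at day 6. Its differences at days 4 and 6 were -1.71 ± 0.32 and -2.18 ± 0.32 (adjusted p = 0.00192 and 0.00034). The day 2 libraries (1.26 to 3.19 CPM) already lay wholly below those of day 0 (5.94 to 8.69 CPM). That day 2 difference did not pass the limma test (-1.32 ± 0.32, adjusted p = 0.122). Lgr4, the broadly expressed receptor of this family, stood at 169 ± 15.8 CPM at day 0 and 174 ± 47.4 at day 6 (0.01 ± 0.18, adjusted p = 0.962). The ligase genes Rnf43 and Znrf3 had differences of -0.74 ± 0.36 and -0.47 ± 0.28 at day 6 (adjusted p = 0.129 and 0.218). Lgr6 was at most 0.208 CPM. The median difference of the 4 tested genes was -0.17 at day 4 and -0.61 at day 6.

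Among 16 Wnt receptor and co-receptor genes, 2 were higher and 1 lower at day 4, and 5 were higher and 2 lower at day 6, with medians of 0.10 and 0.29. The day 4 counts lay below the shares of all genes, and the day 6 counts near or slightly above them. Fzd1, a frizzled receptor, rose from 53.0 ± 4.21 CPM at day 0 to 136 ± 13.7 at day 4 (1.34 ± 0.24, adjusted p = 0.00172), and Fzd9 fell from 5.45 ± 3.38 to 0.811 ± 0.282 (-1.70 ± 0.35, 0.0034). Ror1, a receptor for Wnt5a, was 1.03 ± 0.29 higher at day 6 (adjusted p = 0.0172), and Fzd4, another frizzled receptor, was 0.98 ± 0.33 higher (0.0375), a call that was lost without day 6 replicate 2 (0.60, adjusted p = 0.109). Of the 2 genes of Wnt secretion, Wls, the carrier that brings Wnt proteins to the cell surface, was lower at day 6 (-0.44 ± 0.14, adjusted p = 0.0286), and Porcn, which adds their lipid, was not called (0.49 ± 0.34, 0.29). Of 15 other Wnt genes only 4 passed the filter, and Wnt6 was the one called, higher at day 6 at 2.41 ± 1.02 CPM against 0.608 ± 0.421 (1.08 ± 0.25, adjusted p = 0.00554). Its highest day 0 library held 0.892 CPM. Like Rspo1, Wnt6 thus passed the filter only through later days, and this p carries that filter.

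Secreted inhibitors of both pathways were among the genes that rose. Of 9 tested secreted Wnt antagonists, 2 were higher at day 4 and 6 at day 6, and 0 were lower at either day, with median differences of 0.77 and 1.18. The day 4 count was near the share of all tested genes (21.2%), and the day 6 count was above it (23.5%). Sfrp1, a secreted frizzled-related protein that binds Wnt ligands, rose from 29.7 ± 16.2 CPM at day 0 to 155 ± 56.3 at day 4 (2.41 ± 0.45, adjusted p = 0.00213) and 227 ± 135 at day 6 (2.85 ± 0.45, 0.000616). Sostdc1, which inhibits both Wnt and BMP signals, rose by 1.72 ± 0.36 and 2.38 ± 0.36 (adjusted p = 0.00394 and 0.000449). Of 10 BMP antagonists other than Grem1, 4 were higher at day 4 and 6 at day 6, and 0 were lower, with medians of 0.66 and 1.10. These were led by Chrdl2, a chordin-like protein, at 4.45 ± 0.835 CPM at day 0 and 46.6 ± 11 at day 4 (3.11 ± 0.45, adjusted p = 0.000392). Fst (follistatin, 2.22 ± 0.36), Bmper (2.04 ± 0.36) and Chrd (chordin, 1.25 ± 0.33) were the others at day 4 (adjusted p = 0.000806, 0.00132 and 0.0135). Nog, the gene of noggin and singled out after its values were seen, stood at 2.78 ± 0.431 CPM at day 0 and 2.72 ± 0.848 at day 4 (-0.04 ± 0.26, adjusted p = 0.906). The list of BMP ligand genes also holds Bmp1, which despite its name encodes a protease and not a ligand. Of its 10 tested genes 1 was higher (Bmp8b) and 1 lower (Bmp8a) at day 4. At day 6, 4 were higher, Bmp1 among them, and 1 lower, and the medians were 0.28 and 0.63.

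Genes that Wnt signals are known to induce moved in both directions. Of 16 tested Wnt target genes, 6 were higher and 4 lower at day 4, and 4 were higher and 6 lower at day 6, with medians of -0.17 and -0.21. The share higher at day 6 was near that of all genes. At day 4 Ccnd1, the gene of cyclin D1 (1.99 ± 0.41, adjusted p = 0.00354), and Myc (1.44 ± 0.25, 0.00129) were higher, while Lgr5 and Tnfrsf19, also known as Troy (-1.24 ± 0.28, 0.00615), were lower. At day 6 Apcdd1, a membrane inhibitor of Wnt, was higher (1.58 ± 0.24, adjusted p = 0.00039), and Sox9, a transcription factor of the crypt base, was lower (-1.23 ± 0.29, 0.007). Axin2, a target widely used as a readout and singled out after its values were seen, was 37.7 ± 8.31 CPM at day 0, 16.5 ± 2.66 at day 2, 20.4 ± 3.75 at day 4 and 16.1 ± 4.49 at day 6. Its day 2 difference did not pass the limma test (-1.13 ± 0.24, adjusted p = 0.0904). Those at day 4 (-0.85 ± 0.24, adjusted p = 0.0173) and day 6 (-1.19 ± 0.24, 0.00254) did. Epithelial marker RNA was also below every day 0 library in 2 of the 3 day 6 libraries, and its part in the fall of these epithelial genes was not tested. Among 12 genes of BMP receptors and targets, 1 was higher and 1 lower at day 4, and 3 were higher and 1 lower at day 6, with medians of 0.10 and 0.14, near or below the shares of all genes. Id2, a BMP target, was 1.22 ± 0.27 higher at day 6 (adjusted p = 0.00446), and Smad7, an inhibitor of the pathway, was at -0.63 ± 0.12 (0.00224). Of 14 core genes of the beta-catenin pathway, 3 were higher at day 4, near the share of all genes, and 1 at day 6, below it, and 0 were lower.

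Without day 6 replicate 2, an alternative chosen for these lists after the data were seen, 3365 of 15124 tested genes were higher and 1808 lower at day 6. The secreted Wnt antagonists then had 4 higher and 0 lower, the BMP antagonists 6 and 0, the Wnt receptors and co-receptors 2 and 2, and the Wnt targets 5 and 5. The BMP ligand list had 2 higher, the protease gene Bmp1 among them, and 1 lower of 9 tested. The BMP receptors and targets had 1 and 2 of 11 tested. The 14 core genes of the beta-catenin pathway had 1 higher and 1 lower (Tcf7l1, at -0.56, adjusted p = 0.0355). Lgr5 (-1.98), Sfrp1 (2.4), Sostdc1 (2.08), Ror1 (0.66), Wls (-0.58), Wnt6 (0.85), Apcdd1 (1.32), Sox9 (-0.85), Axin2 (-0.96), Id2 (1.02) and Smad7 (-0.55) kept their limma calls, with adjusted p from 0.000404 to 0.0293. The call of Wnt6 again rests on a filter that it passed only through later days. Of the Wnt targets named at day 4, Ccnd1, not called at day 6 with all libraries (1.03, adjusted p = 0.0706), was then called higher (1.69, 7.28e-06).

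**Figure D5:**
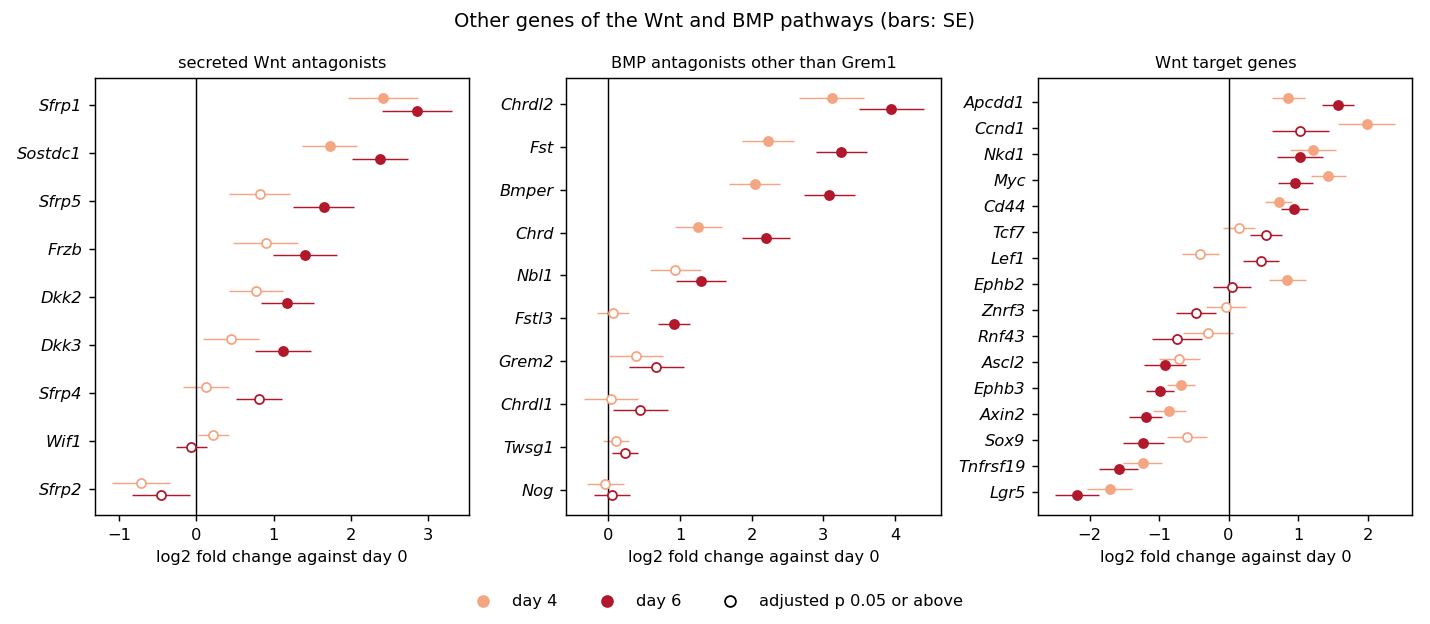
Difference of log2(CPM + 1) from day 0 (x axis) at days 4 and 6 for the tested secreted Wnt antagonists, BMP antagonists other than Grem1 and Wnt target genes (y axis), with SE as bars. Filled circles passed an adjusted p of 0.05. No antagonist was called lower, and the Wnt targets ran from Apcdd1 at 1.58 to Lgr5 at -2.18 at day 6.

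The genes with the pattern most like each member were named by Pearson's r of log2(CPM + 1) over the 12 libraries, which share their days and depth. For Grem1 these were Igfbp5 (r = 0.993), Tacr1 (0.992) and Ankrd33b (0.991). Igfbp5, a secreted binding protein of insulin-like growth factors, went from 66.9 CPM at day 0 to 2282 CPM at day 6. For Rspo3 they were Asap3 (0.995), Ctps (0.994) and Parp3 (0.994), and for Rspo1 Cmklr1 (0.959), Anxa5 (0.957) and Ankrd33b (0.955), so that Ankrd33b was shared by Grem1 and Rspo1. The genes nearest to Wnt2b were Myo9a (0.976), Kcnn3 (0.970) and Plcb1 (0.967), and those nearest to Wnt5a were Trim29 (0.963), Setdb1 (0.950) and Stk11 (0.949). Wnt4 had the least close neighbours, Slc10a3 (0.907), Cenpb (0.876) and Zdhhc4 (0.870).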

How the data were processed

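RNA sequencing was done on whole mid-colon, 12 libraries in 4 days of 3, grouped by their time point labels. Per the labels' protocols, poly(A) RNA was read as stranded paired libraries. The submitters' processing notes name HISAT2 2.2.1, featureCounts 2.0.1 and the build mm10. The sources used here do not give the annotation, the strand setting or the scaling formula, so overlapping or antisense genes may share reads. The authors deposited 1 table of CPM for 25904 genes, and 0 columns were left unmapped. In every library 100% of values lay within 0.1 of a whole read, which gave the read totals, and 0.196% to 0.797% of reads lay outside the listed genes. Amplified reads carry no molecular identifiers here, so read numbers overstate the molecules seen.

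The 15246 genes that reached 1 CPM in 3 or more libraries were fitted with limma 3.58.1 in R 4.3.3 on log2(CPM + 1), with 1 mean per day, trend and robust moderation, and Benjamini-Hochberg adjustment over all tested genes at a threshold of 0.05. The recovered reads were also tested with edgeR 4.0.16 and DESeq2 1.42.0. The other alternatives were pseudocounts of 0.5 and 5, no filter, a mean of at least 5 CPM, 2 other scalings, plain moderation, the replicate number as a block, only the 2 days compared, and leaving out each library. Ratios to summed fibroblast markers used exact permutation tests. The limma script was checked on simulated data. Coordinates and exon lengths are from GENCODE M21 (GRCm38). All 8 genes were named in every comparison. From each pathway list, up to 4 genes with an adjusted p under 0.05 were named by size of change, or all genes of lists of 5 or fewer, and for each tested gene its 3 most correlated genes. Axin2 and Nog fall outside this rule. Leaving Rspo1 out of the counts, and day 6 replicate 2 out of the pathway lists, was chosen after seeing the data. The 8 genes and all lists were chosen with earlier results of these data known.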

Additional observations from a re-analysis of the deposited data

How the results depend on the processing

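Over 23 alternatives, the calls of Grem1 and Rspo3 at days 4 and 6 and of Wnt5a at day 4 were kept. Rspo1, which a mean of at least 5 CPM removes, passed from day 2 to day 4 with quantile normalization (adjusted p = 0.0296), plain moderation (0.05 after rounding) and without day 2 replicate 3 (0.012) or day 6 replicate 2 (0.0311) or 3 (0.0418), fits that carry its filter. The number of genes lower at day 6 was 1 (Wnt4) in place of 0 with median-of-ratios scaling, quantile normalization, edgeR and DESeq2, and 0 to 1 when single libraries were left out. At day 2 the number higher was 1 (Wnt5a) with DESeq2 and with only the 2 days compared, and 0 to 1 with single libraries left out, and the number lower was 1 (Wnt4) with DESeq2. With the longest transcript as length, over all 12 libraries Rspo3 ranked 3 and Wnt2b ranked 2. Relative to Pdgfra alone, Rspo3 at day 2 was at -0.36 (log2) in place of a small rise. Leaving out single libraries turned the sign of small differences that had not passed: Wnt4 at day 4 against day 0 ranged from -0.21 to 0.15, and day 6 against day 4 from -0.12 to 0.82 for Grem1, -0.12 to 0.71 for Rspo3 and -0.26 to 0.45 for Wnt2b. Relative to fibroblast markers, day 2 against day 0 ranged from -0.65 to 0.17 for Rspo2, -0.0202 to 0.248 for Rspo3, -0.41 to 0.26 for Wnt2 and -0.11 to 0.14 for Wnt2b. Where the cause is not given by fewer samples, the cause was not tested.

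Nothing in the labels pairs libraries of the same replicate number. Of 18 same-number pairs, 7 had correlated deviations over 0.1 (-0.212 to 0.636), and 5 of 12 libraries correlated best with their own number. With the replicate block, 4 genes (Rspo1 included) were again higher at day 4 and at day 6, and 0 at day 2. Depth limits Rspo2 and Wnt2, which rested on 6 to 94 reads per library.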
